A study of Mus musculus with 10 samples.

Results

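Adipocyte genes were measured in skeletal muscle RNA from 10 mice, and the 10 genes described here, *Adipoq*, *Plin1*, *Cidec*, *Cfd*, *Lep*, *Fabp4*, *Retn*, *Pck1*, *Scd1* and *Pparg*, were chosen by name as markers of fat cells, out of 49315 genes in the counts. Each library held the poly(A) RNA of the gastrocnemius, a calf muscle, of 1 male C57BL6J mouse. There were 5 AHRfl/fl mice (numbers 11, 12, 13, 15 and 33) and 5 AHRmKO mice (numbers 8, 9, 19, 22 and 34). Both genotypes carried floxed alleles of the aryl hydrocarbon receptor gene *Ahr*, whose product is a ligand-activated transcription factor that responds to compounds in tobacco smoke. The AHRmKO mice also carried HSA-MerCreMer, a Cre recombinase that tamoxifen activates and that the human skeletal actin promoter drives in muscle fibres, so that fat cells were not the target of the deletion, and the AHRfl/fl mice were littermates without Cre. Tamoxifen was injected into the peritoneum some weeks before the smoke, and the smoke exposure of both genotypes is dated from its delivery. The mice were described as aged, and all 10 had breathed cigarette smoke for 16 weeks before the muscle was taken 72 h after the last exposure. No air-exposed mice were analysed here. The comparison of the genotypes asks whether loss of the receptor in muscle fibres changed the amount of RNA from these genes in the whole muscle, and the mouse by mouse values show how far that amount varied between animals of 1 genotype.

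White fat cells store triglyceride in a single large droplet and secrete hormones. Small numbers of them lie between the fibres and bundles of skeletal muscle, where they can arise from fibro-adipogenic progenitors, and larger depots surround the muscle and its nerves and vessels. The 10 genes cover the main functions of these cells. *Adipoq*, *Cfd*, *Lep* and *Retn* encode secreted proteins, and *Plin1* and *Cidec* encode proteins of the droplet surface. *Fabp4* and *Scd1* encode proteins that carry and desaturate fatty acids, and *Pck1* encodes an enzyme used in making glycerol for triglyceride. *Pparg* encodes the nuclear receptor that drives fat cell differentiation. Some of the 10 genes are used elsewhere as well, *Fabp4* in capillary endothelium and macrophages and *Scd1* in many lipid-making cells. In RNA from a whole muscle, fewer fat cells and less RNA per fat cell cannot be told apart.

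Total counts per mouse were between 30393035 and 37954388, and 3 counts, the floor used for detection, corresponded to between 0.0788 and 0.0927 CPM, the counts scaled by the normalized library size, which covers counting error only. *Ahr* itself had between 43 and 110 counts in AHRfl/fl and between 31 and 80 counts in AHRmKO mice, with a log2 fold change of -0.35 (adjusted p = 0.844, edgeR quasi-likelihood test), a value that sums reads over all exons and not only the deleted part. *Esr1*, whose ligand-binding part is included in the MerCreMer transgene, had between 544 and 658 counts in AHRfl/fl and between 9770 and 24975 counts in AHRmKO mice, so that the libraries separated as labelled. All 10 libraries had at least 282 counts of the Y-linked gene *Kdm5d*. *Xist*, the transcript of the inactive X chromosome of female cells, nevertheless had 71, 69, 75, 65 and 44 counts in AHRfl/fl mice 11, 15 and 33 and AHRmKO mice 9 and 22, against 0 to 3 counts in the other 5 libraries. The text below therefore gives this split for the level of *Fabp4*, for relations with *Adipoq*, and for the fold changes whose sign turned under it.

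Of the 10 genes, 8 had a promoter window in RefSeq (GRCm38.p6), 11 windows in all, each reaching from 250 bases before to 50 bases after an annotated transcript start. *Fabp4* and *Scd1* had none. Since most of these genes rose and fell together from mouse to mouse, the windows were searched on both strands for 3 motifs. These were TTGNNCAA, a loose form of the C/EBP site, AGGTCA, the half-site of nuclear receptors, and TATAAA. The letters N may be any base, so a match to the loose form need not be a palindrome or a full C/EBP site. This form was found in windows of 4 genes, *Adipoq*, *Plin1*, *Cidec* and *Lep*, and in 6.4% of all 32851 mouse windows of this length. *Cfd*, *Retn* and *Pck1*, which also followed *Adipoq* across mice, hold none of the motifs, whereas the relation of *Lep* with *Adipoq* did not pass its threshold. The windows shown are those of *Adipoq* (chr16:23146286-23146585, plus strand), *Plin1* (chr7:79732727-79733026, minus strand) and the second *Cidec* start (chr6:113434715-113435014, minus strand), because these genes followed each other across mice and each holds the form, and that of *Cfd* (chr10:79890603-79890902, plus strand), which followed them across mice and holds none of the motifs. They are written 5′ to 3′ on the strand of the gene, with the matched letters in capitals.
Adipoq: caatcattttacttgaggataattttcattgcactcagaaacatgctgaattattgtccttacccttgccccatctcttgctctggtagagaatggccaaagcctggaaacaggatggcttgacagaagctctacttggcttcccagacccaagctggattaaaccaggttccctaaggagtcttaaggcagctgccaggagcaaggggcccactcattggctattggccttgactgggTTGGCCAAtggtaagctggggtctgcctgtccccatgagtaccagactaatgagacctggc
Plin1: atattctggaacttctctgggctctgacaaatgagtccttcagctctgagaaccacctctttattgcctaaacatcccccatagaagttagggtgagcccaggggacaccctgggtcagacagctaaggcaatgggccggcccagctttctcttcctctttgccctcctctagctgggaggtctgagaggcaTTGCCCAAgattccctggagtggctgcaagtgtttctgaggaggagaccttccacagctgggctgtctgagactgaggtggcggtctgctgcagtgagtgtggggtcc
Cidec, second start: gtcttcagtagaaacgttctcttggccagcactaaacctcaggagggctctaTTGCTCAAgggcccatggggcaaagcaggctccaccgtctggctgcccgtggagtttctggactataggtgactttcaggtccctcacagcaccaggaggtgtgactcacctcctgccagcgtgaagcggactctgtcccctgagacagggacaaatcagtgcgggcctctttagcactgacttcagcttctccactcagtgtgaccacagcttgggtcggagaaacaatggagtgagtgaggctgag
Cfd: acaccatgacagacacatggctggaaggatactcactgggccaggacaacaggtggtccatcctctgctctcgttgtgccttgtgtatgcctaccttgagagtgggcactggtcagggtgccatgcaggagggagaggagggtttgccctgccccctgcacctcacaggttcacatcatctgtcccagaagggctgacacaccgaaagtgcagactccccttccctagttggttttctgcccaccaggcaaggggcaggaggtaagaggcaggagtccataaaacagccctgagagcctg
The first matched base lay at -11 relative to the start in *Adipoq*, at -58 in *Plin1* and at -198 in *Cidec*. In *Lep* the match TTGCGCAA began at -55. The half-site AGGTCA was found in the first and second of the 3 *Pparg* windows, at -28 and -9, and in 16.3% of all windows. The second *Pparg* window (chr6:115362099-115362398, plus strand) is shown because it alone among the 11 also holds TATAAA, as its reverse complement at -29, a motif of 13.6% of all windows, with no overlap between the matches.
Pparg, second start: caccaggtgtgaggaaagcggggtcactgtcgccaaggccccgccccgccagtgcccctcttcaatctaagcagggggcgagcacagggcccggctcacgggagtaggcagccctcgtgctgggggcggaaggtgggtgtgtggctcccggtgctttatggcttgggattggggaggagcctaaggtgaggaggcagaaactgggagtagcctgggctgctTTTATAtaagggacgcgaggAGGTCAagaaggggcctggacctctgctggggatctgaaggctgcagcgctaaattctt
A match describes letters only, and no binding was measured here.

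*Adipoq* (ENSMUSG00000022878, GRCm38 chromosome 16 from 23146536 to 23158028) encodes adiponectin, the hormone most restricted to fat cells. It was present in every muscle, at 5.77, 2.02, 1.55, 0.801 and 1.02 CPM in AHRfl/fl mice 11, 12, 13, 15 and 33 and at 4.49, 7.33, 0.970, 1.87 and 1.08 CPM in AHRmKO mice 8, 9, 19, 22 and 34. Mouse 11 of the first genotype and mice 8 and 9 of the second stood above the other 7, and the genotypes overlapped almost completely. The means were 2.23 ± 2.03 CPM (SD, n = 5) in AHRfl/fl and 3.15 ± 2.74 CPM (SD, n = 5) in AHRmKO muscle. AHRmKO exceeded AHRfl/fl by 0.50 on the log2 scale, with a standard error of 0.72 and a 95% interval from -1.13 to 2.12 (edgeR quasi-likelihood test, p adjusted over 14714 genes = 0.938), and the exact permutation test of the mean log2 CPM, two-sided as all such tests here, gave p = 0.619, so that the difference did not exceed the variation between mice. The lowest count, 28 in AHRfl/fl mouse 15 (exact Poisson 95% interval 18.6 to 40.5), and the highest, 270 in AHRmKO mouse 9 (238.8 to 304.2), differed far beyond counting error.

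*Cfd* (ENSMUSG00000061780, chromosome 10 from 79890853 to 79892655) encodes adipsin, a serine protease of the alternative complement pathway that fat cells secrete in large amounts. Its levels were 43.4, 16.5, 10.7, 7.58 and 6.06 CPM in AHRfl/fl mice 11, 12, 13, 15 and 33 and 25.8, 39.5, 6.16, 18.9 and 4.43 CPM in AHRmKO mice 8, 9, 19, 22 and 34. The same 3 mice were highest, and AHRmKO mouse 22 was the next. The means were 16.8 ± 15.4 and 18.9 ± 14.5 CPM (SD, n = 5 each), with a log2 fold change of 0.17 (95% interval -1.55 to 1.89, adjusted p = 0.982 by edgeR; exact permutation p = 0.881).

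*Retn* (ENSMUSG00000012705, chromosome 8 from 3655770 to 3660110) encodes resistin, which in mice is a product of fat cells. It was at 3.70, 1.67, 0.790, 0.629 and 0.989 CPM in AHRfl/fl mice 11, 12, 13, 15 and 33 and at 1.81, 3.12, 0.457, 1.499 and 0.538 CPM in AHRmKO mice 8, 9, 19, 22 and 34. Resistin RNA was highest in AHRfl/fl mouse 11 and AHRmKO mouse 9. The group means were 1.56 ± 1.26 and 1.49 ± 1.09 CPM (SD, n = 5 each), and the log2 fold change of -0.06 had a 95% interval from -1.42 to 1.29 (adjusted p = 0.994 by edgeR; exact permutation p = 0.881).

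*Lep* (ENSMUSG00000059201, chromosome 6 from 29060220 to 29073877) encodes leptin, the hormone that reports fat stores to the brain. Only 9, 2, 14, 1 and 4 reads were counted in AHRfl/fl mice 11, 12, 13, 15 and 33, and 27, 22, 10, 4 and 6 in AHRmKO mice 8, 9, 19, 22 and 34. AHRmKO mice 8 and 9 were again highest, whereas AHRfl/fl mouse 11 was below mouse 13, and 2 libraries lay under the floor of 3 counts. *Lep* was the single member that failed the filter on low counts, so it has no adjusted p. The difference of mean log2 CPM was 0.94 in favour of AHRmKO and did not exceed the variation between mice (exact permutation p = 0.175).

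*Plin1* (ENSMUSG00000030546, chromosome 7 from 79720218 to 79732903) encodes perilipin 1, which coats the droplet of fat cells and restrains lipolysis. Its levels were 4.81, 1.38, 1.01, 0.486 and 0.804 CPM in AHRfl/fl mice 11, 12, 13, 15 and 33 and 3.76, 4.15, 0.571, 1.52 and 0.628 CPM in AHRmKO mice 8, 9, 19, 22 and 34. The 3 high mice were those of *Adipoq*, and the lowest was AHRfl/fl mouse 15 for both. The log2 fold change was 0.33 (95% interval -1.37 to 2.02, adjusted p = 0.964 by edgeR; exact permutation p = 0.698), from means of 1.70 ± 1.77 and 2.13 ± 1.72 CPM (SD, n = 5 each).

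*Cidec* (ENSMUSG00000030278, chromosome 6 from 113424634 to 113435760) encodes a protein that fuses small droplets into a large one. It was counted at 3.72, 1.90, 1.41, 0.801 and 0.835 CPM in AHRfl/fl mice 11, 12, 13, 15 and 33 and at 3.41, 5.05, 0.856, 2.00 and 0.508 CPM in AHRmKO mice 8, 9, 19, 22 and 34. Its order over the mice was close to that of *Plin1*, with AHRmKO mouse 34 lowest. The means were 1.74 ± 1.20 and 2.37 ± 1.88 CPM (SD, n = 5 each), and the log2 fold change was 0.45 (95% interval -0.98 to 1.88, adjusted p = 0.934 by edgeR; exact permutation p = 0.762).

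*Scd1* (ENSMUSG00000037071, chromosome 19 from 44394455 to 44407879) encodes stearoyl-CoA desaturase, which makes monounsaturated fatty acids. Here AHRfl/fl mouse 11 stood alone in its genotype at 40.6 CPM, above 12.2, 9.96, 11.4 and 11.4 CPM in mice 12, 13, 15 and 33. In AHRmKO muscle mice 8 and 9 had 48.9 and 54.7 CPM, mouse 22 had 18.1 CPM, and mice 19 and 34 had 10.02 and 9.99 CPM. Outside the 3 high mice and mouse 22, the 6 remaining muscles thus lay between 9.96 and 12.2 CPM. The log2 fold change of 0.73 did not exceed the variation between mice (95% interval -0.77 to 2.23, adjusted p = 0.884 by edgeR; exact permutation p = 0.333), with means of 17.1 ± 13.1 and 28.3 ± 21.7 CPM (SD, n = 5 each). It was 0.35 without AHRmKO mouse 9 and 1.33 without AHRfl/fl mouse 11.

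*Pck1* (ENSMUSG00000027513, chromosome 2 from 173153048 to 173159273) encodes the cytosolic phosphoenolpyruvate carboxykinase, which serves gluconeogenesis in liver and the making of glycerol for triglyceride in fat. It showed the shape of *Scd1*, with 3.78 CPM in AHRfl/fl mouse 11 against 0.663, 0.762, 0.772 and 0.587 CPM in mice 12, 13, 15 and 33. In AHRmKO mice 8, 9, 19, 22 and 34 it was at 3.70, 4.78, 0.485, 2.08 and 0.419 CPM. Its log2 fold change, 0.80, was the highest of the 9 tested members, yet its 95% interval ran from -0.98 to 2.59 (adjusted p = 0.891 by edgeR; exact permutation p = 0.508). The means were 1.31 ± 1.38 and 2.29 ± 1.94 CPM (SD, n = 5 each). The log2 fold change was 0.35 without AHRmKO mouse 9 and 1.72 without AHRfl/fl mouse 11.

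*Fabp4* (ENSMUSG00000062515, chromosome 3 from 10204088 to 10208576) encodes the fatty acid-binding protein of fat cells, capillary endothelium and macrophages. It did not share the pattern of the genes above. It was at 143.2, 118.8, 105.4, 173.8 and 164.2 CPM in AHRfl/fl mice 11, 12, 13, 15 and 33 and at 141.6, 160.8, 140.9, 158.3 and 95.7 CPM in AHRmKO mice 8, 9, 19, 22 and 34. The highest mouse for *Fabp4*, AHRfl/fl mouse 15, was the lowest for *Adipoq*. The log2 fold change was -0.02 with a 95% interval of -0.38 to 0.34 (adjusted p = 0.994 by edgeR; exact permutation p = 0.937), from 141.1 ± 29.1 and 139.5 ± 26.1 CPM (SD, n = 5 each). The 5 libraries with 44 or more *Xist* counts had 143.2 to 173.8 CPM of *Fabp4* and the 5 without had 95.7 to 141.6 CPM, so these ranges did not touch, which they did for the other 9 members. This split was seen in the data and was not tested. The share of all genes whose ranges fail to touch under this split was not counted. Whether *Fabp4* is unusual in this respect is therefore not known.

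*Pparg* (ENSMUSG00000000440, chromosome 6 from 115360951 to 115490399) encodes PPARγ, the receptor on which fat cell differentiation depends and a regulator of several genes above. It was at 3.47, 4.44, 3.92, 4.23 and 5.22 CPM in AHRfl/fl mice 11, 12, 13, 15 and 33 and at 6.38, 4.61, 2.91, 3.94 and 3.11 CPM in AHRmKO mice 8, 9, 19, 22 and 34. AHRmKO mouse 8 was highest, but AHRfl/fl mouse 11, one of the 3 mice rich in *Adipoq*, had the lowest level of its genotype. The log2 fold change was -0.02 (95% interval -0.46 to 0.42, adjusted p = 0.994 by edgeR; exact permutation p = 0.770), with means of 4.26 ± 0.653 and 4.19 ± 1.40 CPM (SD, n = 5 each).

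**Figure D1:**
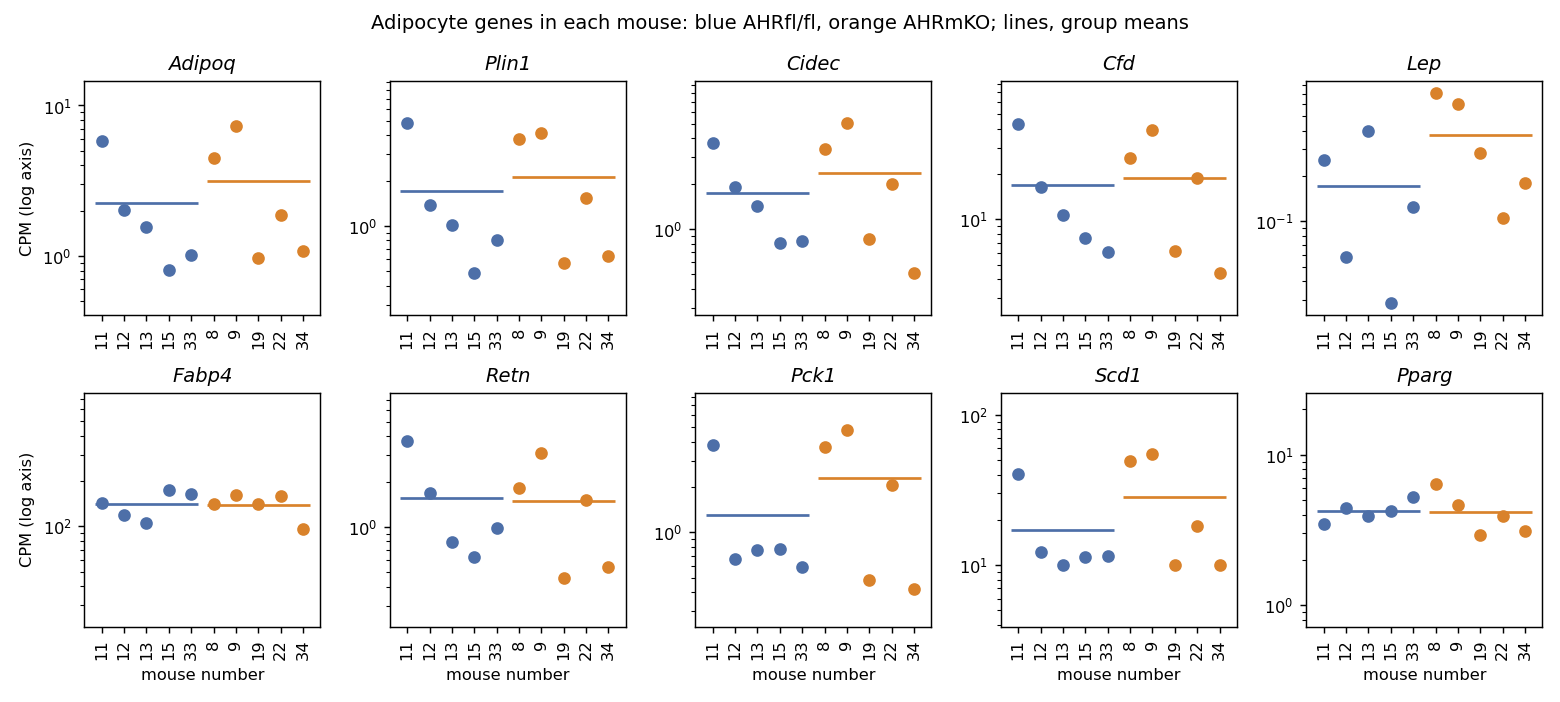
Level of each of the 10 adipocyte genes in CPM (normalized counts, log axis, each panel covering the same fold range) in the 5 AHRfl/fl mice (blue) and the 5 AHRmKO mice (orange), with the mouse number on the x axis and a line at each group mean. AHRfl/fl mouse 11 and AHRmKO mice 8 and 9 are highest for *Adipoq*, *Plin1*, *Cidec*, *Cfd*, *Retn*, *Pck1* and *Scd1*, while *Fabp4* stays between 95.7 and 173.8 CPM.

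Across the genotype comparison, 9 of the 10 members were tested and 0 had an adjusted p under 0.05, where 0.0068% of all genes tested were called (edgeR quasi-likelihood test). The gene called was *Esr1*. Also 0 of the 9 had an unadjusted p under 0.05, against 3.23% of all genes higher and 3.38% lower in AHRmKO at that level, and the alternative DESeq2 test called 0 members and 21 genes in all, with no adjusted p for *Pck1* and *Retn*. In 0 of the 10 members did the mice of the genotypes fail to overlap, against 1.4% of all genes. Fold changes were above 0 for 6 members and below 0 for 3, with a median log2 fold change of 0.33 beside 0.0056 over all genes. The width of the intervals sets what these 10 mice could show, since for *Adipoq* the interval still includes a log2 fold change of 2.12, whereas for *Fabp4* it ends at 0.34. The direction of several values rested on single mice. Without AHRmKO mouse 9 the log2 fold changes of *Adipoq*, *Plin1*, *Cidec* and *Cfd* were -0.08, -0.06, -0.03 and -0.28, and without AHRfl/fl mouse 11 that of *Retn* was 0.55.

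**Figure D2:**
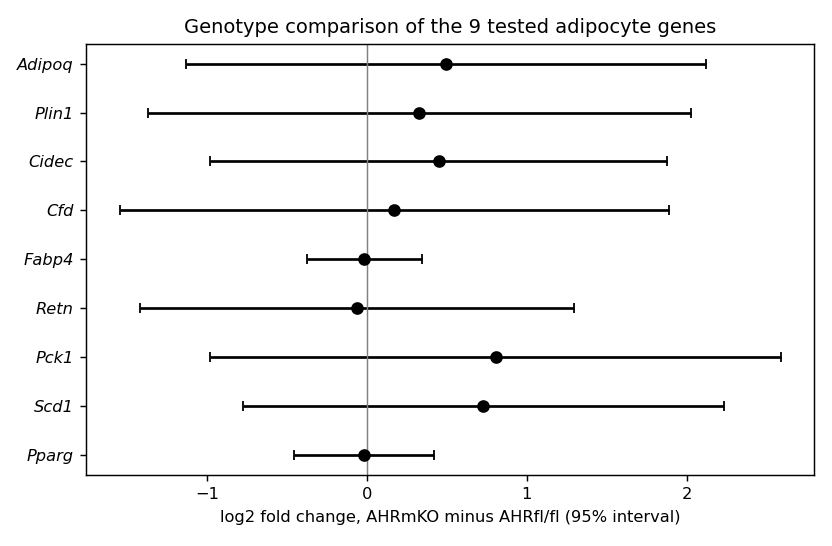
Log2 fold change of AHRmKO over AHRfl/fl muscle (x axis) for the 9 tested adipocyte genes (y axis), as points with 95% intervals from edgeR, 5 mice per genotype. Every interval includes 0, and those of *Fabp4* and *Pparg* are the narrowest.

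The spread between mice of 1 genotype was the main feature of these genes. The highest of the 10 mice exceeded the lowest by 9.15-fold for *Adipoq*, 9.88-fold for *Plin1*, 9.93-fold for *Cidec*, 9.80-fold for *Cfd*, 8.09-fold for *Retn*, 11.4-fold for *Pck1* and 5.49-fold for *Scd1*. The ratio for *Lep* was 24.8, but its lowest value is 1 read. *Fabp4* and *Pparg* ranged over 1.82-fold and 2.19-fold. Within a genotype the range of *Adipoq* was 7.20-fold among AHRfl/fl and 7.55-fold among AHRmKO mice, and that of *Cidec* was 4.65-fold and 9.93-fold. The SD of log2 CPM within genotype, pooled over both, had a median of 1.09 over the members and 0.209 over all genes tested. Set against genes whose mean log2 CPM lay within 1 of their own, *Adipoq* with an SD of 1.17 was at the 99.4th percentile and *Cfd* with 1.24 was at the 99.7th, where the median SD of comparable genes was 0.315 and 0.150. *Plin1*, *Pck1*, *Scd1*, *Cidec* and *Retn* were at percentiles from 99.0 to 99.6, *Lep* at 95.1, *Fabp4* at 93.5 and *Pparg* at 79.0. These percentiles describe the libraries and carry no test.

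Most of the members rose and fell together from mouse to mouse. Over the 10 mice, the log2 CPM of *Plin1* followed that of *Adipoq* with Pearson's r = 0.98 (permutation test, adjusted p = 0.000225) and Spearman's rho = 0.96. For *Cidec* r was 0.95 (permutation test, adjusted p = 0.000225; rho 0.90), and for *Cfd* it was 0.94 (permutation test, adjusted p = 0.0003; rho 0.85). *Retn* had r = 0.92 and rho = 0.90, *Scd1* had r = 0.94 and rho = 0.77, and *Pck1* had r = 0.92 and rho = 0.73, each with an adjusted p of at most 0.00123 for r by the permutation test. So 6 of the 9 relations passed the threshold of 0.05 for r after Benjamini-Hochberg adjustment over the 9. An r of at least that of *Pck1*, the lowest of the 6, was reached by 12 of the 14713 other genes tested, or 0.0816%, a count that includes these 6 members. The other 3 were *Lep* (r = 0.63, adjusted p = 0.0692), *Pparg* (r = 0.34, adjusted p = 0.380) and *Fabp4* (r = 0.14, adjusted p = 0.688). Mice of both genotypes were among the high and among the low, and the cause of the shared rise and fall was not tested.

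Because 3 mice stood apart, the relations were also taken without the extreme animals. Without AHRfl/fl mouse 11 and AHRmKO mouse 9, the 2 farthest from the median of *Adipoq*, r over 8 mice was 0.99 for *Plin1*, 0.92 for *Cidec*, 0.88 for *Cfd*, 0.87 for *Scd1*, and 0.82 for *Pck1* and *Retn*. Among the 7 mice left when all 3 high mice were removed, only the relation of *Plin1* passed the threshold for r (r = 0.96, exact permutation test, adjusted p = 0.0107). Its rho there was 0.93 and did not pass (exact permutation test, adjusted p = 0.0607). *Plin1* was also the 1 gene of 14713 (0.0068%) to reach its r there. There r was 0.87 for *Cidec*, 0.85 for *Cfd* and 0.81 for *Retn*, and fell to 0.54 for *Scd1* and 0.53 for *Pck1*. Removing mice by their *Adipoq* level narrows its range, which lowers r for any relation. Whether the relations of *Scd1* and *Pck1* rested on the 3 high mice cannot be told from this. When each level was taken as the deviation from the mean of libraries with or without *Xist* counts, r was between 0.94 and 0.98 for the 6 members that had passed. It was 0.72 for *Lep* (permutation test, adjusted p = 0.0252), whose rho there was 0.61 and did not pass (permutation test, adjusted p = 0.0853). These permutations ran over all 10 mice and not within each set of libraries, so the p-values may be too small.

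**Figure D3:**
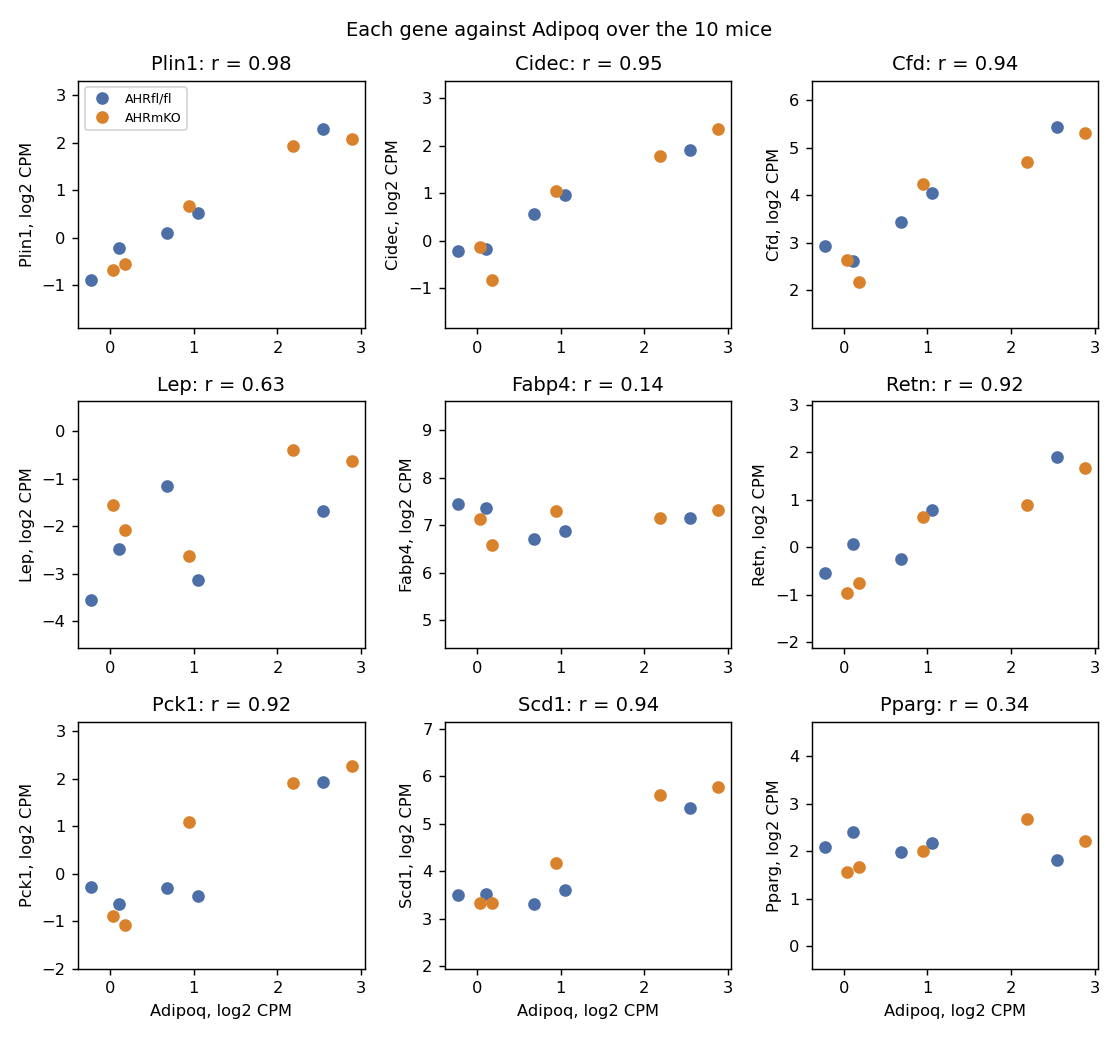
Level of each other adipocyte gene (y axis, log2 CPM, every panel spanning the same number of log2 units) against that of *Adipoq* (x axis, log2 CPM) in the 10 mice, AHRfl/fl in blue and AHRmKO in orange, with Pearson's r. *Plin1*, *Cidec* and *Cfd* lie near a line over the 10 mice, and without the 3 high mice only *Plin1* passed the threshold for r. *Scd1* and *Pck1* are raised mainly in the high mice, and *Fabp4* is level.

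The ratio of each member to *Adipoq* within a mouse described the same grouping. The log2 ratio of *Plin1* to *Adipoq* had an SD of 0.216 over the 10 mice, against 1.19 for the log2 level of *Plin1* itself, and the ratio stayed between 0.567 and 0.836 reads of *Plin1* per read of *Adipoq*. For *Cidec* the SD fell from 1.07 to 0.334, for *Cfd* from 1.17 to 0.390, for *Scd1* from 1.02 to 0.380, for *Retn* from 0.995 to 0.438 and for *Pck1* from 1.30 to 0.523. The opposite held for *Fabp4*, whose SD was 0.287 as a level and 1.12 as a ratio, with 21.9 reads per *Adipoq* read in AHRmKO mouse 9 and 217.0 in AHRfl/fl mouse 15. For *Pparg* the SD was 0.336 as a level and 1.06 as a ratio. *Lep* lay between, at 1.05 and 0.933. These SDs are descriptions that include counting error, and a ratio shares the error of *Adipoq*.

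**Figure D4:**
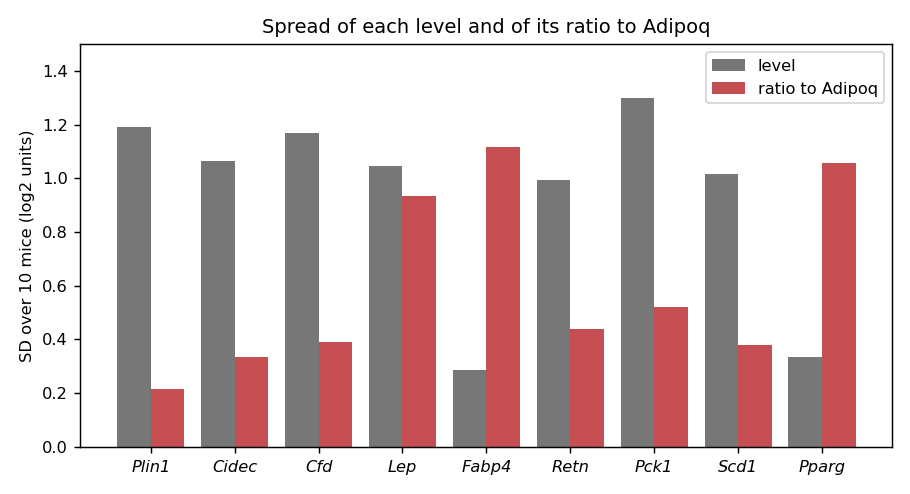
SD over the 10 mice, in log2 units, of the level of each adipocyte gene (grey bars) and of its ratio to *Adipoq* (red bars). The ratio is steadier than the level for *Plin1*, *Cidec*, *Cfd*, *Retn*, *Pck1* and *Scd1*, and less steady for *Fabp4* and *Pparg*.

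Levels of different genes were compared per kilobase of exon, as means over the 10 mice. *Fabp4* had the highest level, 31.3 CPM per kb, followed by *Cfd* at 19.4, *Scd1* at 4.64, *Adipoq* at 1.95, *Pparg* at 1.43, *Cidec* at 1.10, *Retn* at 0.963, *Pck1* at 0.526, *Plin1* at 0.411 and *Lep* at 0.0816. The ranges of all neighbours in this order over the 10 mice overlap. The order is one of means and does not hold in every mouse. At this exon length *Cfd* was above *Fabp4* in AHRfl/fl mouse 11 and AHRmKO mouse 9. The union of annotated *Fabp4* exons, 4489 nt, is a single block that includes introns of the main transcript, and with the 896 nt of the principal transcript its level would be 156.6 CPM per kb. The order of the lower genes also depends on the length taken, since per kb of principal transcript *Pparg* (2.39) was above *Adipoq* (2.08), *Retn* (1.34) above *Cidec* (1.19), and *Plin1* (0.679) level with *Pck1* (0.677). No member's exons overlap those of another gene.

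Outside the members, the 15 protein-coding genes most like them were taken by Pearson's r over the 10 mice with the mean of the members' standardised log2 CPM, among 11360 genes with a mean log2 CPM of at least 0. The closest was *Crebl2* (r = 0.95), a gene related to the CREB factors, which ranged only 1.52-fold. *Cdo1*, the cysteine dioxygenase, had r = 0.93 and a range like that of the members, from 0.556 to 4.02 CPM, or 7.22-fold, with its maximum in AHRmKO mouse 9. *Rapgef5* (r = 0.89) and *Tmem44* (r = 0.92) ranged 3.09-fold and 2.78-fold. *Pde3b*, the phosphodiesterase through which insulin restrains lipolysis, had r = 0.90 and a 1.87-fold range. The other 10 were *Ppil4*, *Papss2*, *Klhl5*, *Sbno1*, *Purg*, *Ptch1*, *Cflar*, *S1pr3*, *Pot1b* and *Dstyk*, with ranges from 1.17-fold to 1.78-fold. Of the 11360 candidates, 10 had an r of at least 0.9 and 6 had an r of at most -0.9. With 10 points and so many candidates these values are descriptions. The adjusted p of the 15 genes for genotype was at least 0.830 (edgeR).

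Wider adipocyte genes gave 0 genes with an adjusted p under 0.05 in each of 4 lists, where 0.0068% of all genes tested were called (edgeR). At an unadjusted p under 0.05, 3.23% of all genes were higher and 3.38% were lower in AHRmKO. Of 13 further genes of lipid droplets and lipolysis, 11 were tested and 0 had an unadjusted p under 0.05, with a median log2 fold change of 0.016. The most abundant per kb were *Pnpla2*, the first lipase of triglyceride breakdown (76.6 CPM per kb, log2 fold change -0.19), *Plin4* (40.4, 0.30), *Mgll* (12.5, 0.09) and *Plin5* (8.18, -0.21), which muscle fibres also express. Of 19 genes of lipid uptake and synthesis, 19 were tested and 2 had an unadjusted p under 0.05, both higher in AHRmKO, where 3.23% of all genes were higher at that level. These were *Gpd1*, the cytosolic glycerol-3-phosphate dehydrogenase (log2 fold change 0.25, edgeR adjusted p = 0.668), and *Pcx*, pyruvate carboxylase (0.31, edgeR adjusted p = 0.606), which were not called after adjustment. Of 9 adipogenic transcription factors, 9 were tested and 0 had an unadjusted p under 0.05, and the most abundant, *Rxra*, *Cebpb*, *Klf15* and *Cebpd*, had log2 fold changes of 0.11, -0.59, -0.12 and -0.61. Of 12 other secreted factors and hormone receptors, 11 were tested and 2 had an unadjusted p under 0.05, both higher in AHRmKO beside the same 3.23% of all genes, *Nrg4*, which encodes neuregulin 4 (0.63, edgeR adjusted p = 0.668), and *Ghr*, the growth hormone receptor (0.22, edgeR adjusted p = 0.606). The receptors of the hormones above, named after their values were seen, had log2 fold changes of -0.08 for *Adipor1* (95% interval -0.28 to 0.12), 0.03 for *Adipor2* (-0.14 to 0.19) and 0.29 for *Lepr* (-0.61 to 1.19).

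No gene of these wider lists reached the r of *Pck1* with *Adipoq* (0.92), which 0.0816% of all genes did. *Gpd1*, *Pcx*, *Nrg4* and *Ghr*, named above for their unadjusted p, had r of 0.03, 0.14, -0.27 and 0.20 with *Adipoq*. Which cells of the muscle their RNA came from was not tested. The median r of all genes was 0.0007. The highest r in these lists, also picked after their values were seen, were those of *Fasn*, the fatty acid synthase (r = 0.87), *Mrap*, the melanocortin receptor accessory protein (r = 0.86, at most 29 counts), and *Nnat*, neuronatin (r = 0.85). *Acly*, which makes cytosolic acetyl-CoA, had r = 0.71, and *Rbp4*, a retinol carrier, had r = 0.70. Summed over each list, the genes of uptake and synthesis had r = 0.76 with *Adipoq* and rho = 0.52 (permutation test, adjusted p = 0.106 for r and 0.601 for rho over 14 lists), a sum in which *Car3* alone had between 942.2 and 1981 CPM, those of droplets and lipolysis had r = -0.33, the transcription factors had r = -0.35, and the secreted factors and receptors had r = 0.11 (permutation test, adjusted p of at least 0.699 for these 3). A sum is carried by its most abundant genes, and the genes taken singly had a positive r in 14 of 19, 7 of 13, 3 of 9 and 9 of 12 cases in these lists.

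Some markers of brown fat and skin, tissues that a dissection could include, were near 0 and others were not. The brown fat gene *Ucp1* had 0 or 1 count, *Elovl3* at most 5 and *Cpn2* 0 in every mouse, whereas *Cidea* had 13 to 69, *Dio2* 17 to 51 and *Zic1* 1 to 24 counts. The epidermal keratins *Krt5*, *Krt14* and *Krt1* had at most 2 counts, *Dsp* at most 7 and *Lor* at most 11, whereas *Krt10* had 59 to 103 counts. Markers of muscle fibres (8 of 8 genes tested) had r = -0.05 with *Adipoq* in their summed level, and those of fibro-adipogenic progenitors (12 of 12 tested) had r = -0.04 (permutation test, adjusted p = 0.930 for both). Macrophage, lymphocyte and slow fibre lists had r of -0.41, -0.57 and -0.24, endothelial markers had r = 0.50 and erythroid markers had r = -0.14, while the brown adipocyte list had r = -0.03 and the keratinocyte list r = 0.30, all with a permutation adjusted p of at least 0.418. In the genotype comparison 0 genes of these marker lists had an unadjusted p under 0.05 (edgeR), against 3.23% of all genes higher and 3.38% lower, and only 2 of the 6 brown adipocyte and 1 of the 6 keratinocyte markers had enough counts to be tested.

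Of the 10 cell type and fibre lists, that of Schwann cell markers had the highest r with *Adipoq*, a difference between lists that was not tested. Their summed level was between 63.4 and 115.2 CPM in AHRfl/fl and between 35.4 and 107.8 CPM in AHRmKO mice, and its r with *Adipoq* was 0.75 (permutation test, p = 0.0152, adjusted p = 0.106) with rho = 0.83 (permutation test, p = 0.00485, adjusted p = 0.0679). All 6 listed genes had a positive r, and without the 2 mice farthest from the median r was 0.71. The relation did not pass adjustment over 14 lists, and its part in the spread of the adipocyte genes was not tested.

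*Fabp4* and *Pparg* were set against the same marker lists, 20 relations in all, chosen after the data were seen. *Fabp4* had r = 0.69 with the fibro-adipogenic progenitor list, 0.64 with the endothelial list and -0.68 with the muscle fibre list, and *Pparg* had r = 0.67 with the endothelial list. Without the 2 mice farthest from the median of the gene, these r were 0.40, 0.49, -0.71 and 0.55. With the macrophage list, the r of *Fabp4* was 0.21 and that of *Pparg* was -0.099. The largest r of the 20 was that of *Fabp4* with the brown adipocyte list, 0.75, although *Ucp1* was near 0. None of the 20 passed adjustment (permutation test, lowest adjusted p = 0.169).

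**Figure D5:**
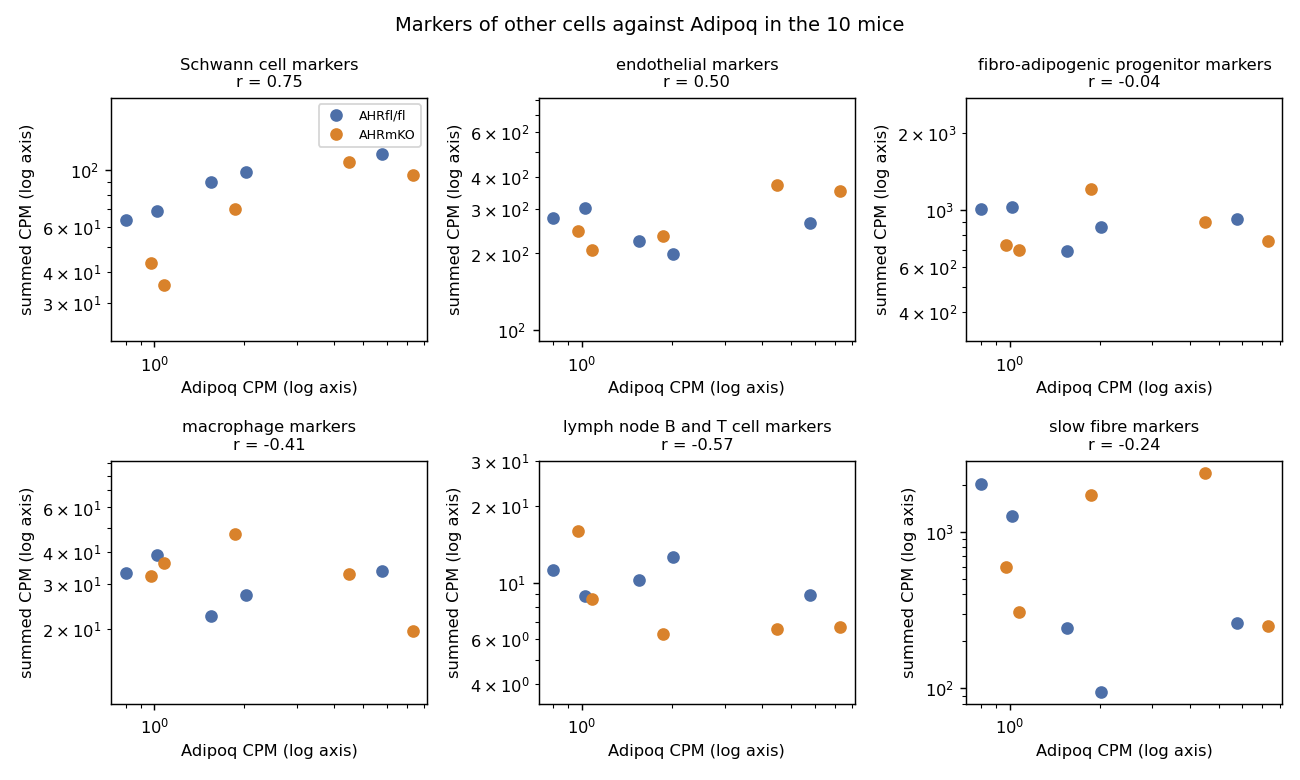
Summed CPM of 6 marker lists (y axis, log axis) against *Adipoq* CPM (x axis, log axis) in the 10 mice, AHRfl/fl in blue and AHRmKO in orange, with Pearson's r of the log2 values. The Schwann cell list has r = 0.75 and the fibro-adipogenic progenitor list r = -0.04, and neither passed adjustment over 14 lists.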

How the data were processed

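Gastrocnemius RNA of 10 mice was analysed. Reads had been trimmed (Trimmomatic 0.36) and aligned to GRCm38 (STAR 2.5.2b), and the authors deposited raw counts of unique exonic reads per Ensembl gene from featureCounts, 1 column for each mouse. The Ensembl release and the strand setting are not given in the sources used here. GENCODE M21 named 49056 of the 49315 identifiers.

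Genotypes were compared in edgeR 4.0.16 under R 4.3.3, by the robust quasi-likelihood test after filterByExpr (smallest count 10, smallest total 15) and TMM scaling, with Benjamini-Hochberg adjustment. CPM used TMM library sizes, and a prior count of 2 was added for log2 CPM. Exact permutation tests enumerated all 252 ways to split the mice and cannot go below p = 0.00794. Correlations used 100000 permutations, or all of them for 9 or fewer mice. Scripts were tested on simulated data. Alternatives were DESeq2 1.42.0, other scalings and filters, covariates and leaving out mice. Members and lists were chosen with earlier results of these data known. The rule for named genes took the members, *Ahr* and *Esr1*, the 15 most similar genes, and from each wider adipocyte list up to 4 genes with an unadjusted p under 0.05 or else the 4 most abundant per kb. Cell type and sex-linked markers, genes called under an alternative, and genes marked as such in the text were named outside this rule, after their values were seen. Each mouse was 1 replicate.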

Additional observations from a re-analysis of the deposited data

Results flagged for a closer look

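In 3 of 20 groups of 5 mice (10 genes in each genotype), 1 mouse lay apart from the other 4 by more than Dixon's critical value. That value is 0.71 for the gap divided by the range, both taken on log2 CPM. Independent groups would give about 1 in 20 by chance. These groups hold the same mice and genes that mostly rose and fell together, so they are not independent and their count is no test. *Pck1* in AHRfl/fl mouse 11 had a ratio of 0.859 on log2 CPM, at 3.78 CPM where the others had at most 0.772 CPM. *Scd1* in the same mouse had a ratio of 0.856, at 40.6 CPM where the others had at most 12.2 CPM. *Fabp4* in AHRmKO mouse 34 had a ratio of 0.746 on that scale, at 95.7 CPM where the others had at least 140.9 CPM. On CPM without the logarithm, a scale tried after seeing the data, the ratios were 0.942 for *Pck1*, 0.927 for *Scd1* and 0.695 for *Fabp4*, so that of *Fabp4* was then under the critical value.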

How the results depend on the processing

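Of the adipocyte genes, 0 were called between genotypes under any alternative that could be fitted, including every mouse left out in turn, and DESeq2 gave no adjusted p for *Pck1* and *Retn*. The number of genes called in all was 1 in the edgeR test. It was 21 with DESeq2, 5 without a filter on low counts (also *Bcl2*, *Asb15*, *Piezo1* and *Dcun1d5*), 2 with the mean of *Adipoq*, *Plin1* and *Cidec* as a covariate (also *Bcl2*), 2 without the 3 mice richest in *Adipoq* (also *Per2*), and 1 to 6 with a mouse left out, the 6 without AHRmKO mouse 34. The number of members whose r with *Adipoq* passed the threshold was 6, where 0.0816% of all genes reached the lowest r of the 6. It fell to 1 without the 3 richest mice, where 0.0068% reached its r, and was 6 to 7 with a mouse left out.

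Without the 3 richest mice, chosen after seeing the data, the log2 fold changes turned to -0.0395 for *Adipoq*, -0.0107 for *Plin1*, -0.129 for *Cidec* and -0.0461 for *Cfd*, and the cause was not tested. Those of *Scd1*, *Pck1*, *Retn*, *Fabp4* and *Pparg* were then 0.182, 0.526, -0.279, -0.0936 and -0.419. A covariate for libraries with *Xist* counts, also chosen after seeing the data, turned those of *Fabp4* and *Retn* to 0.0808 and 0.0283. Over the fits that each omitted 1 mouse, log2 fold changes ran from -0.0822 to 1.22 for *Adipoq*, -0.0615 to 1.21 for *Plin1*, -0.0261 to 0.935 for *Cidec*, -0.281 to 0.893 for *Cfd*, -0.52 to 0.547 for *Retn*, -0.107 to 0.0922 for *Fabp4*, -0.222 to 0.0887 for *Pparg*, 0.354 to 1.72 for *Pck1* and 0.347 to 1.33 for *Scd1*. The r of *Fabp4* with *Adipoq* was -0.112 without the 2 farthest mice, -0.323 without the 3 richest, -0.0184 as deviations from the *Xist* means, and -0.0413 to 0.363 when 1 mouse was omitted.

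No paired analysis was possible because no animal number occurs in both genotypes. With 5 mice per genotype and ranges of 9.15-fold for *Adipoq* between them, the 95% interval of *Adipoq* spans log2 fold changes from -1.13 to 2.12, and *Lep*, at 1 to 27 counts, is limited by depth.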
